A study of Drosophila melanogaster with 12 samples.

Results

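Transcriptomes of the proximal parts (PP) of salivary glands from lglRNAi;RasV12 larvae were compared with those of entire w1118-glands. Taken by their sample titles, these were 3 PP and 3 w1118 libraries, 6 of the 12 libraries in the series. The PP came from a cross of w1118,BxGal4;;Drs-GFP females to w1118;UAS-l(2)glRNAi;UAS-RasV12 males, while the control larvae had w1118 fathers and, per the labels, the same mothers. Both groups thus carried the BxGal4 driver, which is active in the secretory epithelium. In lglRNAi;RasV12 larvae it drove dominant-active Ras together with RNAi against the polarity gene l(2)gl. The labels also give both groups the Drs-GFP reporter, although the published cross list omits it for w1118. All larvae were raised on food with antibiotics and dissected at 96 hr after egg deposition (AED). Each library pooled the glands of many larvae, with more gland pairs for the PP than for entire glands. The tissue label of the PP reads "posterior part", whereas the paper describes the part nearest to the duct, and its term is used here.

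Proximal parts of w1118-glands were not analysed here. Genotype and position in the gland therefore change together and cannot be told apart in the main comparison. Values against the 3 libraries of entire lglRNAi;RasV12-glands, which have the genotype of the PP, are given beside it for many gene groups. Both comparisons share the PP libraries and are not independent of each other.

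The larval salivary gland is a sheet of polyploid secretory cells that grow by endocycles, with a ring of small diploid cells and a duct at its proximal end. Late in larval life the steroid ecdysone switches the secretory cells to the Sgs glue proteins, which later fix the pupa to its support. The new glue (ng) genes mark an earlier phase. Antimicrobial peptides such as Drosomycin, Cecropins, Attacins and Defensin are made mainly by the fat body upon infection, under the NF-kappaB pathways Toll and Imd, and some also in barrier epithelia. Ras signals through the MAP kinase cascade downstream of the EGF receptor. The JNK cascade is a stress pathway that induces matrix metalloproteinases, cytokines and cell death genes.

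Poly(A)-selected RNA was sequenced. Estimated counts added up to 29532039 to 73043536 per PP library, replicate 2 being the deepest, and to 27584224 to 35658020 per w1118 library. The 20 genes with the most counts took 19.3% to 21.3% of a PP library and 39.8% to 47.3% of a w1118 library. Levels are counts scaled to a common library size by TMM normalization (CPM), given in the order of replicates 1, 2 and 3. On this scale the detection floor of 3 counts lay between 0.0397 and 0.144 CPM. Where every library of a group was at or below the floor, the fold is the ratio of the summed counts, scaled to library size, with its exact 95% counting interval, and where all were at 0 it is a lower bound against the floor per library. The transgene was seen in the labelled libraries, as Ras85D had 2866, 2410.1 and 2732 CPM in the PP, against 75, 54.3 and 62.4 CPM in w1118-glands (log2 fold change 5.39 ± 0.16 SE, edgeR adjusted p = 2.44e-09). For l(2)gl, the target of the RNAi, levels were 208, 281 and 242 CPM in the PP, against 156, 139.9 and 189 CPM in w1118-glands, thus higher in every PP library (log2 fold change 0.59 ± 0.14 SE, edgeR adjusted p = 0.00399). Reads of an RNAi hairpin and of the endogenous transcript cannot be told apart in these counts.

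Genes were called where the fold change was at least 2-fold, that is 1 on the log2 scale, and the adjusted p was at most 0.05 (edgeR quasi-likelihood test, Benjamini-Hochberg). Of 9012 genes tested, 1413 were higher in the PP (15.7%) and 1017 were lower (11.3%), with 5666 at an unadjusted p under 0.05. Every PP library was above every w1118 library for 36.8% of the genes and below for 27.6%. Among the called genes named below, the groups overlapped for Hml and Jon65Aiv. Over all tested genes the log2 fold changes had a median of 0.10. Scaling by library size instead gave 0.56, and 2513 genes were higher and 631 lower, so that 79.9% of the calls were in the higher direction instead of 58.1%. Where this choice moved the count of a gene group below by over 1.5 times, both counts are given. Counts by TMM stand against 15.7% and 11.3% of all genes, and counts by library size against 2513 and 631 of 9012. Against entire lglRNAi;RasV12-glands, 740 genes were higher in the PP (8.21%) and 562 were lower (6.24%).

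**Figure D1:**
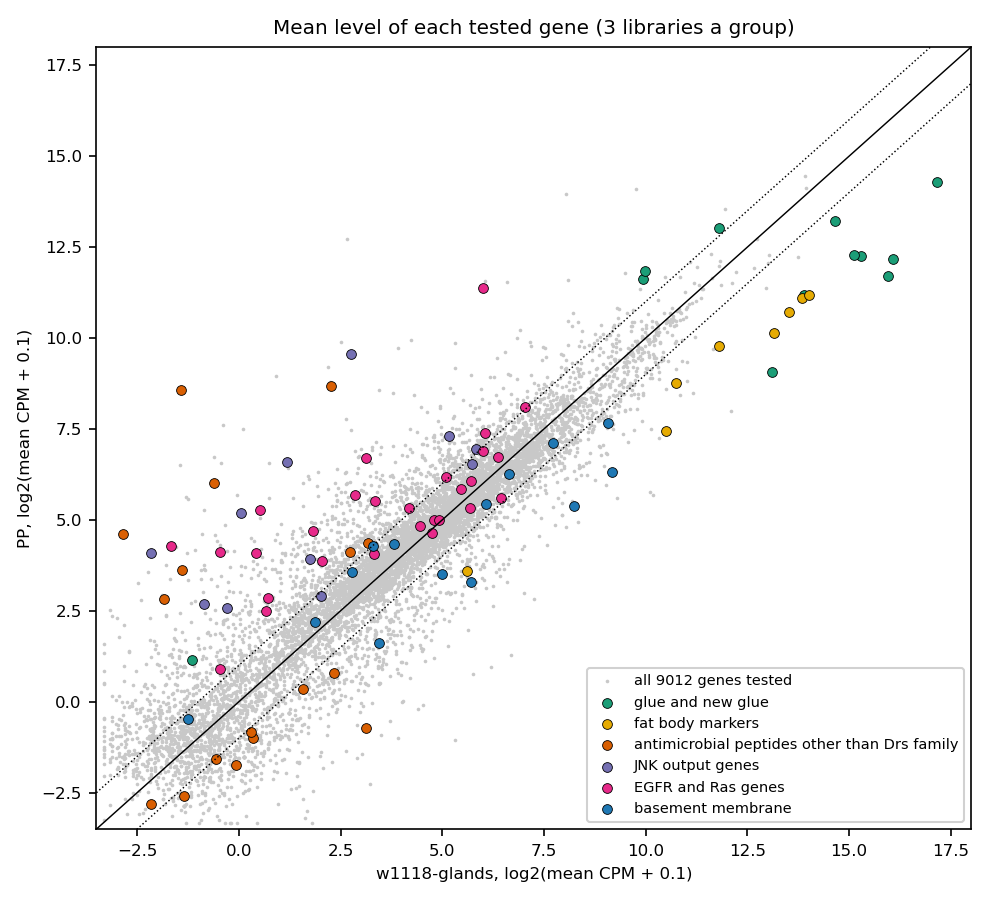
Mean CPM of each of the 9012 genes tested on a log2 scale with 0.1 added, for the PP on the vertical axis and w1118-glands on the horizontal axis (3 libraries each). The solid line marks equal means, the dotted lines a 2-fold difference, and coloured points the members of 6 gene lists. The 8 lower glue genes and the 8 fat body markers lie below the lines, and most called JNK output and EGFR genes lie above.

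Markers of other tissues differed between the groups. All 8 fat body markers, among them the larval serum proteins, were lower in the PP. Their summed level was 8367 to 9277 CPM in the PP and 41738 to 87257 CPM in w1118-glands, with w1118 replicate 2 the highest, and none was at 0 in either group. Lsp1gamma, for example, had 2617, 2101 and 2296 CPM in the PP, against 12297, 24711 and 12368 CPM in w1118-glands (log2 fold change -2.82 ± 0.27 SE, edgeR adjusted p = 3.99e-06). Against entire lglRNAi;RasV12-glands, 7 of the 8 were lower in the PP, at a median log2 fold change of -1.87. For entire lglRNAi;RasV12-glands against w1118-glands the median was -0.91. Of 13 hemocyte markers, 5 were higher and 2 lower, at sums of 269 to 309 CPM in the PP and 147 to 164.5 CPM in w1118-glands. Hml, a hemolectin of plasmatocytes, had 27.8, 12.9 and 22.5 CPM in the PP, against 12.9, 4.45 and 9.4 CPM in w1118-glands (log2 fold change 1.25 ± 0.47 SE, edgeR adjusted p = 0.04). It was not called without PP replicate 1, PP replicate 3, w1118 replicate 2 or w1118 replicate 3, nor by RLE scaling. Of 19 muscle markers, 2 were higher and 8 lower, or 5 lower without PP replicate 2 and 3 lower by library size. Their sums, with Msp300 and Tm1 the largest members, were 3591 to 4374 CPM in the PP and 2499 to 2964 CPM in w1118-glands. The summed gut markers were highest in PP replicate 1, at 160 CPM against 25.4 to 78.8 CPM in the other libraries. Jon65Aiv, a gut protease, had 50, 0.556 and 0.531 CPM in the PP, against 0.0959, 0.714 and 0.131 CPM in w1118-glands, and no gut marker was higher without PP replicate 1 or without w1118 replicate 1, against 3 of 4 with all libraries. The fourth was lower, but not by library size. Jon99Cii, 1 of the 3 higher markers, was at 0 in all w1118 libraries, so that no fold is given for it. It was not called without PP replicate 1. Trachea and cuticle markers added up to 676 to 853 CPM in the PP and 213 to 273 CPM in w1118-glands. Of 14 tested, 3 were higher and none was lower, or 5 higher by library size or without PP replicate 2. Most of this sum was pio, an apical matrix protein gene, with 659.6, 603 and 746 CPM in the PP, against 201, 162 and 160.4 CPM in w1118-glands (log2 fold change 1.94 ± 0.14 SE, edgeR adjusted p = 4.43e-07). Chitin-binding Gasp, with 20.3, 22.8 and 33.4 CPM in the PP, against 26.4, 19.6 and 23 CPM in w1118-glands, overlapped between the groups. Compared with entire lglRNAi;RasV12-glands, 9 of the 14 were higher, among them Gasp (log2 fold change 2.22 ± 0.18 SE, edgeR adjusted p = 8.99e-06). The number was 6 without replicate 2 of the entire glands and 7 without their replicate 3. The part of duct and tracheal tissue in the values below was not tested. In bulk RNA, fewer cells of a type and less RNA per cell cannot be told apart.

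**Figure D2:**
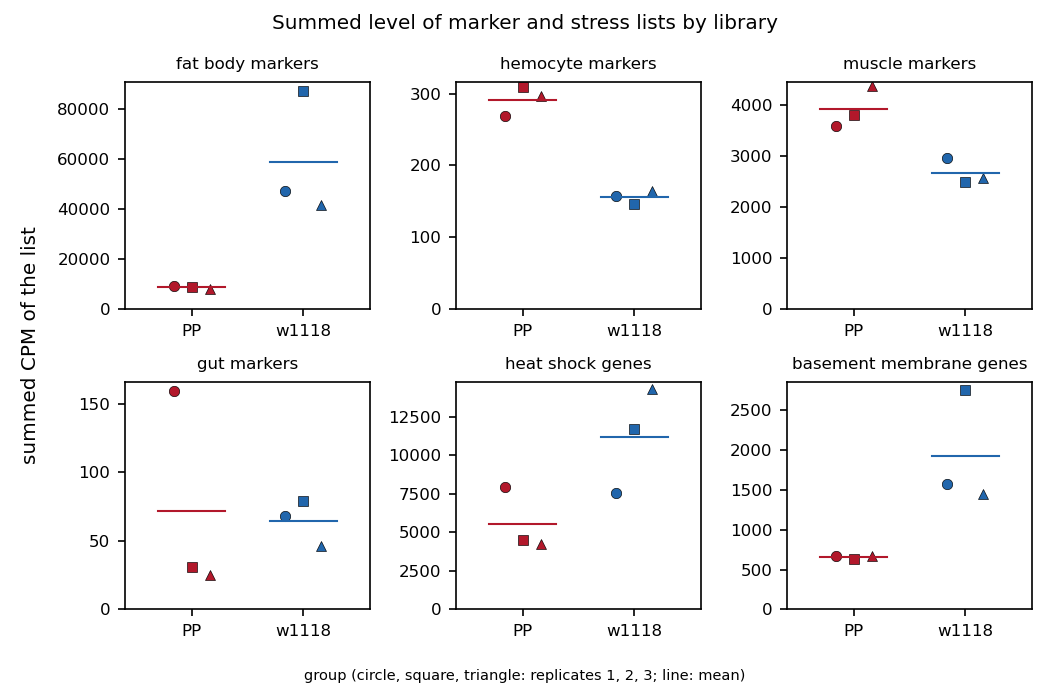
Summed CPM of the members of 6 gene lists in each library, with the 3 PP libraries left and the 3 w1118 libraries right in each panel, symbols for replicates 1, 2 and 3 and a line at the mean. Fat body and basement membrane sums are highest in w1118 replicate 2. PP replicate 1 stands out for the gut markers (160 CPM) and lies within the range of w1118-glands for the heat shock genes (7956 CPM).

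The late secretory programme was lower and the earlier one higher in the PP. All 12 glue and new glue genes were called, 8 lower and 4 higher, at sums of 61487 to 67796 CPM in the PP and 336108 to 522581 CPM in w1118-glands. Sgs3 had 14043, 22303 and 23229 CPM in the PP, against 192490.0, 116364 and 129773 CPM in w1118-glands. The gap between the groups was far wider than the spread within them (log2 fold change -2.88 ± 0.26 SE, edgeR adjusted p = 2.68e-06). Its neighbours Sgs7 and Sgs8, on chromosome arm 3L between 11508967 and 11513402 of dm6, fell by similar amounts, with log2 fold changes of -2.82 and -2.73. Sgs1 had 4562, 3952 and 5305 CPM in the PP, against 85142, 62406 and 58478 CPM in w1118-glands (log2 fold change -3.90 ± 0.21 SE, edgeR adjusted p = 9.19e-08). Sgs4 had 4229, 5151 and 5395 CPM in the PP, against 50689.5, 33402 and 35587 CPM in w1118-glands (log2 fold change -3.02 ± 0.19 SE, edgeR adjusted p = 2.06e-07). The largest decreases were those of Sgs5bis and of Eig71Ee, a glue gene of the 71E puff. Sgs5bis had 617, 413 and 575 CPM in the PP, against 11771, 7068 and 7555 CPM in w1118-glands (log2 fold change -4.04 ± 0.26 SE, edgeR adjusted p = 2.66e-07). Eig71Ee had 3671, 2697 and 3686 CPM in the PP, against 75028, 54514 and 59763 CPM in w1118-glands (log2 fold change -4.23 ± 0.24 SE, edgeR adjusted p = 9.62e-08). Sgs5, beside Sgs5bis on arm 3R, fell least of the 8, with a log2 fold change of -1.41.

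The 4 new glue genes lie in a cluster with Sgs4 on the X chromosome, between 3240026 and 3251040, but were higher in the PP. The first of them, ng1, had 3052, 3482 and 2859 CPM in the PP, against 772, 901 and 1243 CPM in w1118-glands (log2 fold change 1.69 ± 0.18 SE, edgeR adjusted p = 8.84e-06). Its neighbour ng2 had 3739.7, 3654 and 3542 CPM in the PP, against 753, 942 and 1326 CPM in w1118-glands (log2 fold change 1.86 ± 0.24 SE, edgeR adjusted p = 4.11e-05). For ng3, levels were 8439, 8888 and 7845 CPM in the PP, against 3009.6, 3447 and 4327 CPM in w1118-glands (log2 fold change 1.22 ± 0.16 SE, edgeR adjusted p = 4.26e-05). Reads of ng1 and ng2, which are closely similar, may have been split between them. The weakly expressed ng4 had 2.48, 1.85 and 1.96 CPM in the PP, against 0.288, 0.374 and 0.392 CPM in w1118-glands (log2 fold change 2.56 ± 0.39 SE, edgeR adjusted p = 1.65e-04). Sgs4 and the ng genes thus differed in direction within this cluster. The new glue genes were also higher than in entire glands of the same genotype, with log2 fold changes of 2.28 for ng1, 1.92 for ng2, 1.71 for ng3 and 1.99 for ng4. In that comparison Sgs3 (log2 fold change -1.21 ± 0.24 SE, edgeR adjusted p = 0.00276), Sgs4, Sgs7 and Sgs8 were lower, while Sgs1 (-0.56) and Eig71Ee (-0.03) were not called.

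**Figure D3:**
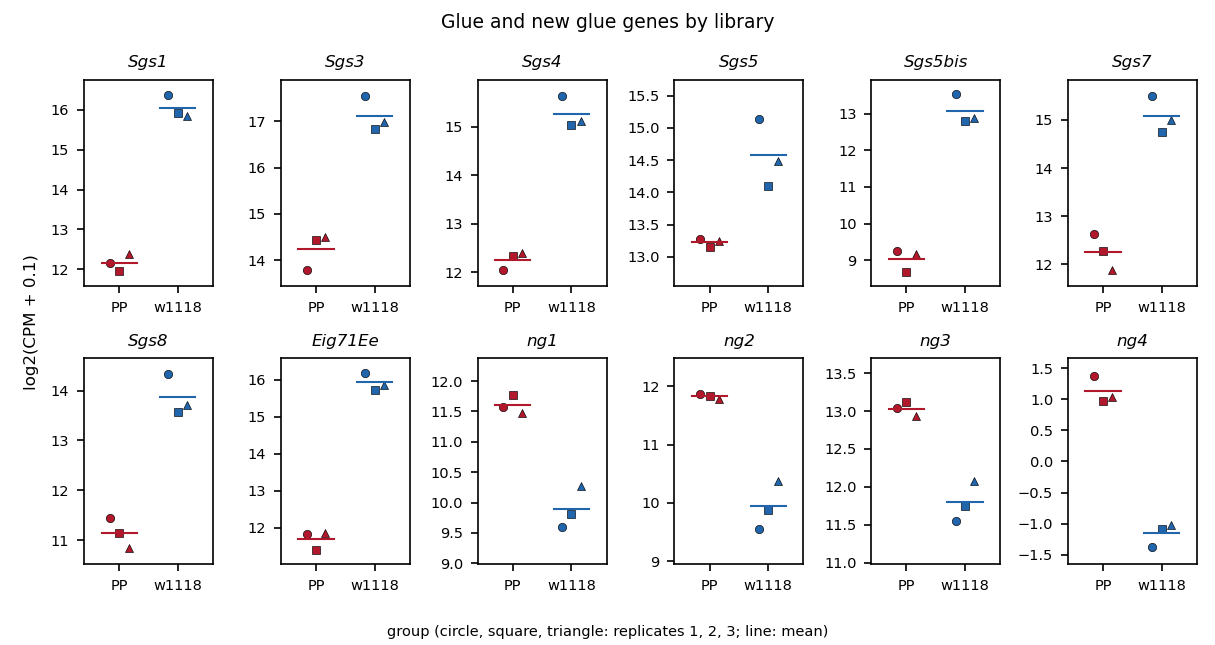
Level of each glue and new glue gene by library, as log2 of the CPM with 0.1 added, with the 3 PP libraries left and the 3 w1118 libraries right in each panel and a line at the mean of the log2 values. The 8 genes from Sgs1 to Eig71Ee are lower in every PP library, and ng1 to ng4 are higher in every PP library.

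Ecdysone response genes did not move together. Of 25 tested, 7 were higher and 2 lower, with a median log2 fold change of 0.60. With PP replicate 1 as the only PP library 2 were higher and 2 lower, and by library size 12 were higher and 1 lower. Eip78C, a nuclear receptor of an early puff, had 4.73, 19.7 and 6.48 CPM in the PP, against 0.288, 0.17 and 0.174 CPM in w1118-glands, with PP replicate 2 well above the others (log2 fold change 5.63 ± 0.64 SE, edgeR adjusted p = 1.61e-05, or 4.74 without that library). ImpL2, a secreted binding protein of insulin-like peptides, had 38.7, 108 and 52.5 CPM in the PP, against 12.8, 22.1 and 10.8 CPM in w1118-glands (log2 fold change 2.12 ± 0.39 SE, edgeR adjusted p = 6.75e-04). Eip63F-1 rose by less (log2 fold change 1.33). The other higher genes stayed below 1 CPM in the PP. By summed counts the receptor Hr3 was 25.3-fold higher with an interval of 4.34 to 1019.7, Eip93F was 7.47-fold higher with an interval of 2.77 to 28.3, and the repressor Blimp-1 was 4.05-fold higher with an interval of 2.02 to 9.22. The last one was the ecdysone-inactivating enzyme gene Cyp18a1 (log2 fold change 2.45, or 3.08 without w1118 replicate 2). Eip74EF, an ETS factor of the early response, was lower, with 189, 163 and 157 CPM in the PP, against 449.5, 344 and 362 CPM in w1118-glands (log2 fold change -1.18 ± 0.11 SE, edgeR adjusted p = 3.35e-06). Cth, which encodes cystathionine gamma-lyase, was lower as well (log2 fold change -1.80 ± 0.10 SE, edgeR adjusted p = 1.02e-07). The Broad factor br, with 464, 534 and 327 CPM in the PP, against 748, 684 and 683 CPM in w1118-glands, did not reach the fold limit (log2 fold change -0.68 ± 0.15 SE, edgeR adjusted p = 0.00245). Against entire lglRNAi;RasV12-glands, 6 of the 25 were higher and 1 was lower, against 8.21% and 6.24% of all genes.

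Of the late-puff Eig71E genes, 4 of 10 passed the filter on low counts and all 4 were lower. Eig71Ea had 1.47, 1.07 and 1.48 CPM in the PP, against 13.8, 8.9 and 9.97 CPM in w1118-glands (log2 fold change -3.03 ± 0.25 SE, edgeR adjusted p = 1.37e-06). Eig71Eg was at 0 in all PP libraries, against 1.97, 1.05 and 0.74 CPM in w1118-glands (at least 20.1-fold lower).

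Of 8 tested factors that specify the gland or its secretory function, 2 were lower and none was higher, or 1 lower by library size. The bHLH factor sage had 412, 323 and 421 CPM in the PP, against 1441, 1382 and 1494 CPM in w1118-glands (log2 fold change -1.90 ± 0.14 SE, edgeR adjusted p = 7.34e-07). CrebA, a bZIP activator of secretory pathway genes, had 367, 265 and 422 CPM in the PP, against 940.5, 845 and 912 CPM in w1118-glands (log2 fold change -1.36 ± 0.16 SE, edgeR adjusted p = 1.82e-05) and was not called by library size. It was also lower than in entire lglRNAi;RasV12-glands (log2 fold change -1.33 ± 0.16 SE, edgeR adjusted p = 9.25e-05). The forkhead factor fkh and the zinc finger factor sens were not called (log2 fold changes 0.43 and -0.15).

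Many genes of the secretory machinery were lower. All 23 genes of COPI and COPII coats, the translocon and Golgi structure had a negative fold change with an adjusted p of at most 0.05 from edgeR, as did 25.2% of all genes. Of these, 12 also passed the fold limit, at a median log2 fold change of -1.02. By library size 2 passed it, at a median of -0.56. Sec61alpha, the channel of the translocon, had 622, 453 and 613 CPM in the PP, against 1493, 1877 and 1786 CPM in w1118-glands (log2 fold change -1.61 ± 0.16 SE, edgeR adjusted p = 4.59e-06). Grasp65, a Golgi stacking protein, had 272, 236 and 281 CPM in the PP, against 776, 801 and 764 CPM in w1118-glands (log2 fold change -1.57 ± 0.10 SE, edgeR adjusted p = 2.74e-07). None of the 23 was called against entire lglRNAi;RasV12-glands. Among 19 ER chaperones and sensors, 2 were lower and 1 was higher, smaller shares than the 11.3% and 15.7% of all genes. By library size 3 were higher. The BiP homolog Hsc70-3 had 4366, 4788 and 5203 CPM in the PP, against 14113, 13927 and 13228 CPM in w1118-glands (log2 fold change -1.52 ± 0.13 SE, edgeR adjusted p = 1.54e-06). Edem2, of ER-associated degradation, had 110.1, 111 and 124 CPM in the PP, against 675, 441 and 439 CPM in w1118-glands (log2 fold change -2.17 ± 0.15 SE, edgeR adjusted p = 4.43e-07). The stress sensor Atf6 was the one higher gene (log2 fold change 1.02 ± 0.19 SE, edgeR adjusted p = 7.80e-04), but its call was lost without PP replicate 3 or w1118 replicate 1, with the replicate block, by RLE scaling, with DESeq2, in a fit of the compared groups alone and with PP replicate 1 as the only PP library. Of 13 genes of mucin O-glycosylation, 1 was higher and 1 lower, smaller shares than the 15.7% and 11.3% of all genes. By library size 3 were higher and none was lower, against 2513 and 631 of all 9012 genes. With TMM Pgant5 was lower (log2 fold change -1.44 ± 0.13 SE, edgeR adjusted p = 2.35e-06). C1GalTA was higher (log2 fold change 1.08 ± 0.17 SE, edgeR adjusted p = 1.99e-04), except without w1118 replicate 2.

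Drosomycin and several other antimicrobial peptide genes were far higher in the PP. Drs had 6693, 7571 and 6181 CPM in the PP, against 12.8, 1.46 and 4.48 CPM in w1118-glands (log2 fold change 10.12 ± 0.67 SE, edgeR adjusted p = 2.79e-07), the log2 fold change being 11.20 without w1118 replicate 1. It was the only one of 7 Drosomycin-family genes that passed the filter on low counts. Of 30 other peptide genes, 17 were tested, of which 6 were higher and 1 was lower. The median of these 17 was nevertheless -1.18, but 0.15 without w1118 replicate 1. In a fit of the PP and w1118 libraries alone 15 were tested, of which 6 were higher and 3 lower, with a median of 1.13. AttD, an intracellular Attacin, had 200.4, 760.5 and 181 CPM in the PP, against 0.0479, 0.17 and 0.609 CPM in w1118-glands (log2 fold change 10.43 ± 1.10 SE, edgeR adjusted p = 9.14e-06). Def, the Defensin gene, had 15, 48 and 9.75 CPM in the PP, against 0.0479, 0.068 and 0 CPM in w1118-glands, which was 756-fold higher with an interval of 258 to 3666 by summed counts. The Cecropin genes lie together on arm 3R, between 30210874 and 30216938. CecC had 242, 635 and 352 CPM in the PP, against 4.94, 5.81 and 3.31 CPM in w1118-glands (log2 fold change 6.44 ± 0.46 SE, edgeR adjusted p = 5.28e-07). CecB had 4.37, 26.2 and 6.23 CPM in the PP, against 0.431, 0.102 and 0.305 CPM in w1118-glands (log2 fold change 5.52 ± 0.99 SE, edgeR adjusted p = 4.93e-04). CecA1 had 29.5, 131 and 32.7 CPM in the PP, against 0.959, 0.17 and 0.522 CPM in w1118-glands (log2 fold change 6.96 ± 1.10 SE, edgeR adjusted p = 1.98e-04). CecA2 had 2.99, 15.2 and 2.74 CPM in the PP, against 0.24, 0.034 and 0.261 CPM in w1118-glands (log2 fold change 5.36 ± 1.27 SE, edgeR adjusted p = 0.00329), but reads of CecA1 and CecA2, which are near-identical, may have been split between them. In all 6 genes PP replicate 2 was the highest library, and they were also called without it, with log2 fold changes of 9.43 for AttD, 5.89 for CecA1, 4.04 for CecA2 and 4.28 for CecB. Leaving out w1118 replicate 3 gave 11.61 for AttD, and leaving out w1118 replicate 1 gave 7.61 for CecA1.

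Other peptide genes were lower or not called. AttC had 0.629, 0.358 and 0.531 CPM in the PP, against 12.1, 10.7 and 2.83 CPM in w1118-glands (log2 fold change -4.13 ± 1.07 SE, edgeR adjusted p = 0.00563), with no call when PP replicate 1 was the only PP library. DptA, a Diptericin, had 6.11, 28.7 and 16.9 CPM in the PP, against 9.78, 9.04 and 0.914 CPM in w1118-glands (log2 fold change 1.40, edgeR adjusted p = 0.226). DptB had 10.1, 44.6 and 6.71 CPM in the PP, against 10.3, 14 and 2.44 CPM in w1118-glands (log2 fold change 1.20, edgeR adjusted p = 0.244). The groups overlapped for both. AttA, a near-identical copy of AttB, had 0.629, 2.19 and 0.699 CPM in the PP, against 4.36, 2.79 and 1.57 CPM in w1118-glands and was not called (edgeR adjusted p = 0.321). Log2 fold changes against entire lglRNAi;RasV12-glands were 6.38 for AttD, 4.99 for CecA1, 4.04 for CecC and 2.05 for Drs, all of them called. Def, also called as higher there, had 0.0975, 0.0279 and 0.0311 CPM in those glands. Of the 17 genes, 6 were higher and 6 lower there, against 8.21% and 6.24% of all genes. The lower ones were AttC (log2 fold change -4.79 ± 1.07 SE, edgeR adjusted p = 0.0049), AttA, AttB, Dro, BomS2 and BaraA2, and replicate 1 of the entire glands was the highest library for each of them. Without that library AttC alone was lower, at a log2 fold change of -2.73, and 1 or 2 genes were lower without single PP libraries. Leaving out PP replicate 2 gave 5.38 for AttD and 3.96 for CecA1, with 4 genes higher. AttD stood at 7.02 without replicate 2 of the entire glands, and CecA1 at 6.12 without their replicate 1.

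**Figure D4:**
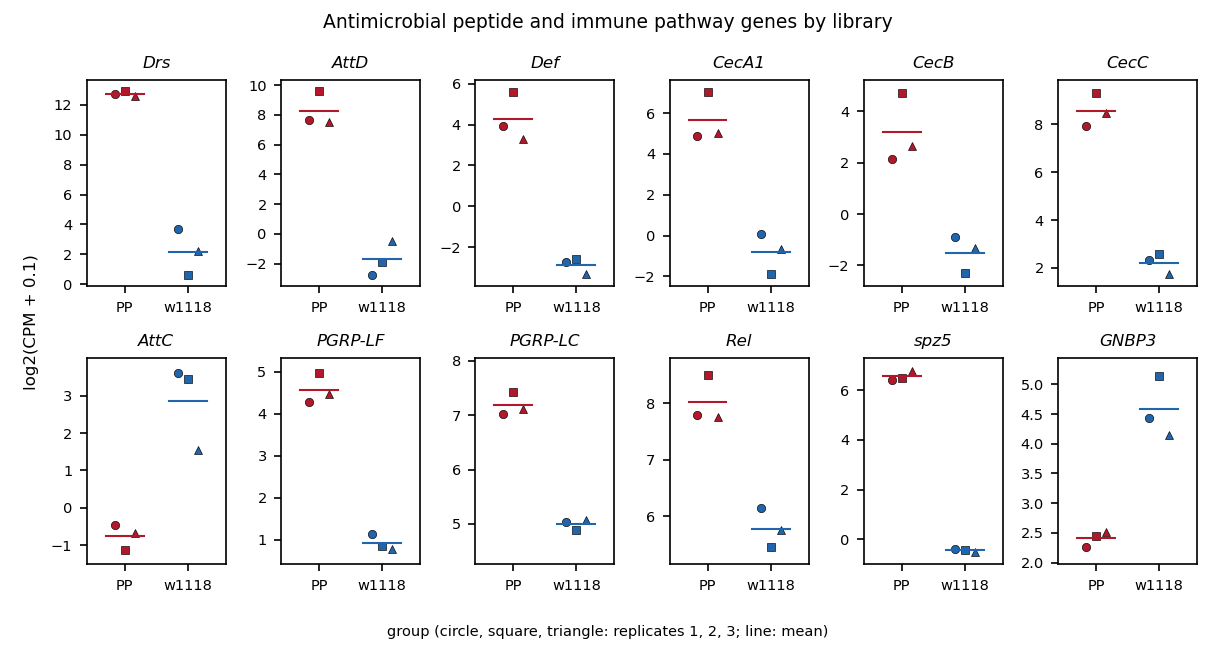
Level of 12 antimicrobial peptide and immune pathway genes by library, as log2 of the CPM with 0.1 added, with the 3 PP libraries left and the 3 w1118 libraries right in each panel and a line at the mean of the log2 values. PP replicate 2 (square) is the highest library for AttD, Def, CecA1, CecB and CecC, whereas spz5 varies little within either group (85.4 to 109.5 CPM in the PP, against 0.609 to 0.671 CPM in w1118-glands).

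Of 24 Toll pathway genes tested, 7 were higher and 7 lower, against 15.7% and 11.3% of all genes. By library size 12 were higher and 5 lower, against 2513 and 631 of all 9012 genes. The 7 higher ones were a ligand, receptors and intracellular components. The Spätzle paralog spz5 had 85.4, 90.1 and 109.5 CPM in the PP, against 0.671, 0.646 and 0.609 CPM in w1118-glands (log2 fold change 7.20 ± 0.17 SE, edgeR adjusted p = 2.09e-10). Tollo, a Toll-family receptor, had 13.6, 25 and 11.8 CPM in the PP, against 2.59, 1.9 and 1.44 CPM in w1118-glands (log2 fold change 3.10 ± 0.33 SE, edgeR adjusted p = 9.48e-06). The NF-kappaB factor Dif had 34.4, 45.4 and 31.9 CPM in the PP, against 8.44, 7.71 and 8.57 CPM in w1118-glands (log2 fold change 2.18 ± 0.20 SE, edgeR adjusted p = 2.65e-06). Its inhibitor cactus (cact) had 363, 330.3 and 385 CPM in the PP, against 142, 157 and 179 CPM in w1118-glands (log2 fold change 1.17 ± 0.11 SE, edgeR adjusted p = 4.09e-06). Pli, the fly Pellino, had 85, 98.8 and 103 CPM in the PP, against 16.1, 12.9 and 13.4 CPM in w1118-glands (log2 fold change 2.76 ± 0.11 SE, edgeR adjusted p = 1.15e-08). The receptors Toll-4 (33.9-fold higher with an interval of 5.88 to 1359.7 by summed counts) and 18w (log2 fold change 1.37) complete the 7. Dorsal (dl), with 116, 114 and 105 CPM in the PP, against 75.9, 47 and 55.5 CPM in w1118-glands, did not reach the fold limit (log2 fold change 0.91 ± 0.17 SE, edgeR adjusted p = 8.17e-04), which it passed without w1118 replicate 1.

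The 7 lower Toll genes encode recognition proteins, proteases and a serpin of the hemolymph. GNBP3, a sensor of fungal glucans, had 4.7, 5.36 and 5.62 CPM in the PP, against 21.6, 35.3 and 17.7 CPM in w1118-glands (log2 fold change -2.25 ± 0.30 SE, edgeR adjusted p = 4.98e-05). The protease persephone (psh) had 1.11, 1.15 and 0.783 CPM in the PP, against 5.27, 8.66 and 4 CPM in w1118-glands (log2 fold change -2.55 ± 0.33 SE, edgeR adjusted p = 4.78e-05). SPE, which cleaves Spätzle, had 1.08, 1.34 and 1.54 CPM in the PP, against 3.07, 6.15 and 2.92 CPM in w1118-glands (log2 fold change -1.62 ± 0.30 SE, edgeR adjusted p = 5.78e-04). The others were nec, grass, GNBP1 and GNBP2. In all 7 w1118 replicate 2 was the highest library, as it was for the summed fat body markers. The part of fat body RNA in these differences was not tested. In the comparison with entire lglRNAi;RasV12-glands 3 Toll genes were higher (spz5, 18w and cact), and 6 of these 7 were lower, or 4 without replicate 1 of the entire glands. Over all genes 8.21% were higher and 6.24% lower there.

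Of 22 Imd pathway genes, 7 were higher and 2 lower, and the higher ones include both receptors and inhibitors. PGRP-LA, PGRP-LC and PGRP-LF lie side by side on arm 3L, within 9334332 to 9351489. PGRP-LC, the main receptor for Gram-negative peptidoglycan, had 129, 171 and 138 CPM in the PP, against 32.7, 29.4 and 33.6 CPM in w1118-glands (log2 fold change 2.19 ± 0.14 SE, edgeR adjusted p = 2.02e-07). PGRP-LF, an inhibitory receptor, had 19.4, 30.9 and 22.2 CPM in the PP, against 2.11, 1.7 and 1.61 CPM in w1118-glands (log2 fold change 3.75 ± 0.35 SE, edgeR adjusted p = 3.50e-06). PGRP-LA had 75.9, 98.8 and 76.6 CPM in the PP, against 16.9, 21.3 and 25.5 CPM in w1118-glands (log2 fold change 1.98 ± 0.16 SE, edgeR adjusted p = 1.23e-06). The NF-kappaB factor Relish (Rel) had 223, 362 and 218 CPM in the PP, against 70.2, 43.4 and 53.8 CPM in w1118-glands (log2 fold change 2.26 ± 0.24 SE, edgeR adjusted p = 1.06e-05). The feedback inhibitor pirk had 7.25, 19.2 and 11.2 CPM in the PP, against 2.06, 1.7 and 1.22 CPM in w1118-glands (log2 fold change 2.93 ± 0.38 SE, edgeR adjusted p = 4.51e-05). The kinase Tak1 and the amidase PGRP-LB were also higher, but PGRP-LB not without PP replicate 2. Tab2, the partner of Tak1, was lower, with 94.7, 80.4 and 94.9 CPM in the PP, against 318, 229 and 212 CPM in w1118-glands (log2 fold change -1.49 ± 0.16 SE, edgeR adjusted p = 9.03e-06). The amidase PGRP-SB1 was lower, with 0.24, 0.411 and 0.224 CPM in the PP, against 6.28, 9.82 and 2.09 CPM in w1118-glands (log2 fold change -4.30 ± 0.90 SE, edgeR adjusted p = 0.00153). Against entire lglRNAi;RasV12-glands, log2 fold changes were 1.97 for PGRP-LC, 3.20 for PGRP-LF and 3.24 for pirk, all called, and 0.62 for Rel, which was not. In all, 4 Imd genes were higher and 3 lower there, against 8.21% and 6.24% of all genes. Without replicate 1 of the entire glands 4 were higher and 1 was lower. PGRP-LF then stood at 3.82.

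Among 11 further immune effectors tested, 4 were higher and 1 was lower, or 6 higher and none lower by library size. The lysozyme gene LysP had 193, 438 and 447 CPM in the PP, against 15.4, 10.9 and 14.8 CPM in w1118-glands (log2 fold change 4.72 ± 0.36 SE, edgeR adjusted p = 7.54e-07). The transferrin gene Tsf3 had 55.2, 113 and 69.9 CPM in the PP, against 3.93, 4.62 and 2.66 CPM in w1118-glands (log2 fold change 4.40 ± 0.40 SE, edgeR adjusted p = 2.95e-06). The nitric oxide synthase gene Nos had 52.5, 78.6 and 59.6 CPM in the PP, against 8.87, 4.18 and 5.31 CPM in w1118-glands (log2 fold change 3.39 ± 0.31 SE, edgeR adjusted p = 2.79e-06). Tep3 was higher (log2 fold change 1.45 ± 0.40 SE, edgeR adjusted p = 0.00807) and Tep2 lower (log2 fold change -1.09 ± 0.22 SE, edgeR adjusted p = 0.00116), the call of Tep2 being lost without w1118 replicate 2 and by library size. Of the hemocyte markers, the lamellocyte marker atilla had 64, 76.2 and 74.8 CPM in the PP, against 11.7, 8.56 and 10.2 CPM in w1118-glands (log2 fold change 2.82 ± 0.13 SE, edgeR adjusted p = 2.93e-08). The scavenger receptor gene crq had 136, 182 and 158 CPM in the PP, against 70, 61.3 and 65.9 CPM in w1118-glands (log2 fold change 1.27 ± 0.15 SE, edgeR adjusted p = 2.02e-05). NimC2 was lower, with 0.988, 5.59 and 2.01 CPM in the PP, against 20.8, 28.8 and 15.9 CPM in w1118-glands (log2 fold change -2.87 ± 0.59 SE, edgeR adjusted p = 0.00128, or -3.86 without PP replicate 2). The crystal cell oxidases PPO1 and PPO2 overlapped between the groups. The part of attached hemocytes in these values was not tested.

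Many EGFR and Ras signalling genes were higher in the PP, among them feedback regulators of the pathway. Of 28 tested, 17 were higher and none was lower, with a median log2 fold change of 1.24. The 17 include Ras85D, which the transgene itself raises by design. The secreted antagonist argos (aos) had 22.4, 13.6 and 22.6 CPM in the PP, against 0.384, 0.136 and 0.131 CPM in w1118-glands (log2 fold change 6.54 ± 0.35 SE, edgeR adjusted p = 8.19e-08, or 7.15 without w1118 replicate 1). Mkp3, a MAP kinase phosphatase, had 33.5, 45.4 and 36.1 CPM in the PP, against 1.44, 1.5 and 1.04 CPM in w1118-glands (log2 fold change 4.85 ± 0.17 SE, edgeR adjusted p = 3.67e-09). The ligand-processing protease rhomboid (rho) had 14.6, 20.4 and 16.6 CPM in the PP, against 0.767, 0.544 and 0.566 CPM in w1118-glands (log2 fold change 4.80 ± 0.27 SE, edgeR adjusted p = 9.30e-08). The inhibitory transmembrane protein gene kek1 had 18.9, 16.2 and 16.1 CPM in the PP, against 1.68, 1.16 and 0.871 CPM in w1118-glands (log2 fold change 3.80 ± 0.18 SE, edgeR adjusted p = 3.43e-08). Sprouty (sty), an antagonist, had 109, 88.7 and 113 CPM in the PP, against 9.59, 8.66 and 7.66 CPM in w1118-glands (log2 fold change 3.58 ± 0.14 SE, edgeR adjusted p = 1.09e-08). Egfr itself had 50.9, 54.7 and 40.2 CPM in the PP, against 109, 79.8 and 71.1 CPM in w1118-glands, below w1118-glands in every library but short of the fold limit (log2 fold change -0.83 ± 0.16 SE, edgeR adjusted p = 7.20e-04). The core cascade genes Raf, Dsor1, ksr, rl, drk and Sos were not called, with log2 fold changes from -0.34 (Sos) to 0.35 (rl). Against entire lglRNAi;RasV12-glands, log2 fold changes were -0.11 for aos, 0.50 for rho, 0.34 for kek1 and 0.20 for Ras85D, none of them called. Of the 28 genes, the ETS factor pnt was higher there (log2 fold change 1.38 ± 0.18 SE, edgeR adjusted p = 2.17e-04). The ligand gene vn was lower (log2 fold change -1.89 ± 0.52 SE, edgeR adjusted p = 0.0137), but not without PP replicate 1, PP replicate 3 or replicate 1 of the entire glands, where it stood at -1.70, -1.71 and -1.03.

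JNK cascade genes were higher in 9 of 15 cases and lower in none. The lists share members, as Tak1 is also counted with the Imd genes and puc with the output genes below. Likewise upd3 is also counted with JAK-STAT, and rpr and hid with cell death. The TNF receptor wengen (wgn) had 14.1, 14.7 and 18.9 CPM in the PP, against 3.55, 3.4 and 2.7 CPM in w1118-glands (log2 fold change 2.30 ± 0.22 SE, edgeR adjusted p = 3.77e-06). The adaptor Traf4 had 12.4, 19.7 and 14.9 CPM in the PP, against 2.64, 2.55 and 4.88 CPM in w1118-glands (log2 fold change 2.23 ± 0.25 SE, edgeR adjusted p = 1.40e-05). The kinase misshapen (msn) had 183, 294 and 177 CPM in the PP, against 70.1, 53.4 and 55.1 CPM in w1118-glands (log2 fold change 1.87 ± 0.24 SE, edgeR adjusted p = 4.57e-05). The AP-1 subunit kayak (kay) had 283, 316 and 277 CPM in the PP, against 128, 81.7 and 102 CPM in w1118-glands (log2 fold change 1.49 ± 0.26 SE, edgeR adjusted p = 3.99e-04). The JNK basket (bsk) was not called (log2 fold change 0.36). The TNF ligand eiger (egr) had 8.59, 8.49 and 7.66 CPM in the PP, against 11.9, 22.8 and 13.4 CPM in w1118-glands, lower in every PP library but short of the fold limit (log2 fold change -0.96 ± 0.21 SE, edgeR adjusted p = 0.00175), which it passed without w1118 replicate 1 or w1118 replicate 3. Compared with entire lglRNAi;RasV12-glands, Traf4 (log2 fold change 1.82 ± 0.24 SE, edgeR adjusted p = 1.89e-04) and wgn (log2 fold change 1.08 ± 0.20 SE, edgeR adjusted p = 0.00168) were higher. The call of wgn was lost without PP replicate 3 (0.95) or replicate 1 of the entire glands (0.87).

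Output genes of JNK had larger fold changes. Of 11 tested, 9 were higher and none was lower, with a median log2 fold change of 3.07. Mmp1, a matrix metalloproteinase, had 522, 1141 and 584 CPM in the PP, against 8.39, 4.42 and 7.14 CPM in w1118-glands, with PP replicate 2 the highest (log2 fold change 6.83 ± 0.51 SE, edgeR adjusted p = 6.55e-07). Its inhibitor Timp had 93.4, 110.3 and 83 CPM in the PP, against 2.64, 2.04 and 1.78 CPM in w1118-glands (log2 fold change 5.48 ± 0.33 SE, edgeR adjusted p = 1.41e-07). The cytokine upd3 had 14, 22.1 and 14.3 CPM in the PP, against 0.336, 0.034 and 0 CPM in w1118-glands (log2 fold change 7.22 ± 0.55 SE, edgeR adjusted p = 7.96e-07, or 9.57 without w1118 replicate 1). The ETS factor Ets21C had 26.4, 60.2 and 22.4 CPM in the PP, against 1.1, 0.578 and 1.13 CPM in w1118-glands (log2 fold change 5.32 ± 0.71 SE, edgeR adjusted p = 5.74e-05). Mmp2 varied more between PP libraries, with 1.89, 4.81 and 12.2 CPM in the PP, against 0.527, 0.442 and 0.392 CPM in w1118-glands (log2 fold change 3.79 ± 0.89 SE, edgeR adjusted p = 0.00314, or 2.89 without PP replicate 3). The feedback phosphatase puckered (puc) had 115, 140.5 and 115 CPM in the PP, against 64, 40.5 and 66.1 CPM in w1118-glands (log2 fold change 1.12 ± 0.19 SE, edgeR adjusted p = 3.96e-04) and was not called without w1118 replicate 2. Log2 fold changes against entire lglRNAi;RasV12-glands were 0.15 for upd3, 0.56 for Mmp1, -0.47 for Timp, 0.42 for Ets21C and -0.99 for puc, none of them called. The other 6 tested genes included 2 that were called there, scaf as higher (log2 fold change 1.46 ± 0.30 SE, edgeR adjusted p = 0.00327) and hid, also a cell death gene, as lower (log2 fold change -1.31 ± 0.41 SE, edgeR adjusted p = 0.0258). The call of hid was lost without PP replicate 1, PP replicate 3 or replicate 1 of the entire glands (-1.20, -1.25 and -0.90). Conversely, puc was lower without PP replicate 2 or without replicate 2 or 3 of the entire glands (-1.09, -1.07 and -1.06). Mmp2 stood at 1.74 without a call. It was called as higher without PP replicate 1 (2.18) or without replicate 1 of the entire glands (3.01).

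Of 14 JAK-STAT genes, 4 were higher and 2 lower, against 15.7% and 11.3% of all genes. By library size 7 were higher and 1 was lower, against 2513 and 631 of all 9012 genes. Besides upd3, the feedback inhibitor Socs36E was higher, with 101, 198 and 107 CPM in the PP, against 30.7, 17 and 20.8 CPM in w1118-glands (log2 fold change 2.57 ± 0.35 SE, edgeR adjusted p = 6.80e-05). The receptor domeless (dome) had 277, 432 and 248 CPM in the PP, against 162, 76.1 and 105 CPM in w1118-glands (log2 fold change 1.48 ± 0.28 SE, edgeR adjusted p = 6.79e-04), and apt was higher too (log2 fold change 2.18 ± 0.37 SE, edgeR adjusted p = 3.30e-04). The negative receptor et (log2 fold change -1.42 ± 0.26 SE, edgeR adjusted p = 6.01e-04) and zfh1 (log2 fold change -1.77 ± 0.43 SE, edgeR adjusted p = 0.00398) were lower. Stat92E was not called (log2 fold change 0.45 ± 0.10 SE, edgeR adjusted p = 0.00169). Of 15 cell death genes, 4 were higher and 2 lower, against the same shares of all genes, 15.7% and 11.3%. By library size 7 were higher and 2 lower. The inducer reaper (rpr) had 4.97, 7.3 and 5.31 CPM in the PP, against 1.15, 0.51 and 0.479 CPM in w1118-glands (log2 fold change 3.07 ± 0.40 SE, edgeR adjusted p = 4.52e-05), while hid, with 6.26, 8.98 and 6.82 CPM in the PP, against 5.37, 1.73 and 4.83 CPM in w1118-glands, was not called (log2 fold change 0.92 ± 0.43 SE, edgeR adjusted p = 0.0898). Diap1, an inhibitor of apoptosis, had 534, 662 and 535 CPM in the PP, against 299.5, 206 and 288 CPM in w1118-glands (log2 fold change 1.12 ± 0.20 SE, edgeR adjusted p = 4.95e-04), with no call without w1118 replicate 2. Debcl of the Bcl-2 family and Corp were higher (log2 fold changes 1.47 for Debcl and 3.20 for Corp, or 4.68 for Corp without w1118 replicate 1). The caspase Decay and the Bcl-2 relative Buffy were lower (-2.57 and -2.05).

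Septate junction and integrin adhesion genes that were called were all higher. Of 23 septate junction genes, 11 were higher and none was lower, or 20 higher by library size. Lachesin (Lac), an immunoglobulin protein, had 324, 471 and 362 CPM in the PP, against 47, 72.9 and 66.1 CPM in w1118-glands (log2 fold change 2.64 ± 0.18 SE, edgeR adjusted p = 3.50e-07). Coracle (cora) had 382, 511 and 415 CPM in the PP, against 168, 146 and 146 CPM in w1118-glands (log2 fold change 1.51 ± 0.13 SE, edgeR adjusted p = 2.49e-06). Of 14 integrin adhesion genes, 7 were higher and none was lower. The alpha subunit scab (scb) had 1231, 1774 and 1209 CPM in the PP, against 305, 212 and 305 CPM in w1118-glands (log2 fold change 2.36 ± 0.20 SE, edgeR adjusted p = 1.88e-06). The beta subunit myospheroid (mys) had 786, 1095 and 799.5 CPM in the PP, against 292, 246 and 281 CPM in w1118-glands (log2 fold change 1.71 ± 0.17 SE, edgeR adjusted p = 7.32e-06). Vinculin (Vinc) was higher (log2 fold change 1.27 ± 0.26 SE, edgeR adjusted p = 0.00135), except without PP replicate 2. Of 15 polarity genes, bazooka (baz) (log2 fold change 1.22 ± 0.17 SE, edgeR adjusted p = 8.69e-05) and E-cadherin (shg) (log2 fold change 1.06 ± 0.12 SE, edgeR adjusted p = 1.43e-05) were higher, neither of them without PP replicate 2 and shg also not without w1118 replicate 2 or by RLE scaling. These 2 of 15 are a smaller share than the 15.7% of all genes. By library size 6 were higher. The scribble-group gene dlg1 lay below w1118-glands without a call (log2 fold change -0.81 ± 0.11 SE, edgeR adjusted p = 4.60e-05). Against entire lglRNAi;RasV12-glands, 1 septate junction and 1 integrin adhesion gene were higher, neither of them without PP replicate 2. Both are smaller shares of their lists than the 8.21% of all genes. No polarity gene was called there.

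Of 14 basement membrane genes, 6 were lower and none was higher, or 5 lower and 3 higher by library size. The collagen IV chain Col4a1 had 90.5, 74.7 and 71.6 CPM in the PP, against 386, 934 and 419 CPM in w1118-glands (log2 fold change -2.88 ± 0.30 SE, edgeR adjusted p = 8.60e-06). Its partner viking (vkg) had 48.7, 37.5 and 38.6 CPM in the PP, against 204, 487 and 223 CPM in w1118-glands (log2 fold change -2.87 ± 0.30 SE, edgeR adjusted p = 7.79e-06). SPARC, which binds collagen IV, had 10.2, 9.14 and 9.95 CPM in the PP, against 38, 81.1 and 37.1 CPM in w1118-glands (log2 fold change -2.42 ± 0.28 SE, edgeR adjusted p = 1.75e-05). The perlecan gene trol had 195, 198 and 212 CPM in the PP, against 506, 712 and 399.6 CPM in w1118-glands (log2 fold change -1.42 ± 0.18 SE, edgeR adjusted p = 3.12e-05). The collagen hydroxylase Plod and the collagen Mp were also lower (log2 fold changes -1.49 and -1.85). Compared with entire lglRNAi;RasV12-glands, 5 of the 14 genes were lower and 1 was higher, against 6.24% and 8.21% of all genes. For Col4a1, vkg, SPARC, trol and Plod, w1118 replicate 2 was the highest library, as for the summed fat body markers. The larval fat body is a known source of collagen IV, and its part in these values was not tested. Without w1118 replicate 2, 6 genes were lower. The other w1118 libraries also had higher fat body marker sums (47473 and 41738 CPM) than the PP (8367 to 9277 CPM). Leaving out replicate 2 therefore cannot show what the fat body contributed.

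Of 30 endocycle and replication genes, 6 were lower and none was higher, with a median log2 fold change of -0.49, or 0.09 with limma on log2(TPM + 0.1). Only 1 was lower by library size and 4 without PP replicate 2 or without w1118 replicate 3. Orc1, of the origin recognition complex, had 8.47, 4.71 and 6.76 CPM in the PP, against 21.2, 34.9 and 28.3 CPM in w1118-glands (log2 fold change -2.10 ± 0.29 SE, edgeR adjusted p = 8.03e-05). The licensing factor Cdc6 had 25.3, 17.5 and 22.8 CPM in the PP, against 56.6, 61.5 and 59.4 CPM in w1118-glands (log2 fold change -1.44 ± 0.14 SE, edgeR adjusted p = 4.36e-06). E2f2 had 14.6, 13.3 and 14.4 CPM in the PP, against 37, 36.8 and 36 CPM in w1118-glands (log2 fold change -1.38 ± 0.10 SE, edgeR adjusted p = 4.23e-07). E2f1, a driver of the endocycle, lay below w1118-glands in every library without reaching the fold limit (log2 fold change -0.63 ± 0.09 SE, edgeR adjusted p = 6.41e-05). Of 21 Myc and nucleolar genes, 18 had an adjusted p of at most 0.05 from edgeR in the higher direction, as did 33.5% of all genes. The fold limit was passed by 3, or by 15 with library size. They were the nucleolar GTPase gene Non1 (log2 fold change 1.62 ± 0.11 SE, edgeR adjusted p = 3.34e-07), the polymerase I subunit Polr1B (log2 fold change 1.36 ± 0.23 SE, edgeR adjusted p = 3.86e-04) and Fib, the fibrillarin (log2 fold change 1.11 ± 0.24 SE, edgeR adjusted p = 0.00189), whose call was lost without w1118 replicate 1. Myc, with 138, 132 and 158 CPM in the PP, against 106, 73.9 and 73.3 CPM in w1118-glands, was not called (log2 fold change 0.76 ± 0.18 SE, edgeR adjusted p = 0.00307). Against entire lglRNAi;RasV12-glands, the Myc and nucleolar genes had a median log2 fold change of 0.86 in the PP. For those entire glands against w1118-glands the median was -0.17. The endocycle and replication genes had medians of 0.41 and -0.72 in the same 2 comparisons.

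Heat shock genes varied between replicates of both groups. Of 20, 14 were lower in the PP and none was higher, with a median log2 fold change of -2.08. Hsp26 had 202, 20.3 and 22.9 CPM in the PP, against 221, 618 and 1014 CPM in w1118-glands (log2 fold change -2.92 ± 0.95 SE, edgeR adjusted p = 0.02), with no call without PP replicate 2, PP replicate 3 or w1118 replicate 3 and a log2 fold change of -4.84 without PP replicate 1. Hsp23 was lower as well (log2 fold change -3.08 ± 0.66 SE, edgeR adjusted p = 0.00171, or -3.67 without PP replicate 1). Hsp83, the Hsp90 homolog, had 1005, 382 and 579.7 CPM in the PP, against 1219, 2002 and 2437 CPM in w1118-glands (log2 fold change -1.52 ± 0.33 SE, edgeR adjusted p = 0.00195). In each of them PP replicate 1 was the highest PP library. Hsp68 had 360.5, 35 and 18.7 CPM in the PP, against 75, 144 and 158 CPM in w1118-glands, with PP replicate 1 above and the other PP libraries below all w1118 libraries (log2 fold change 0.13 ± 1.03 SE, edgeR adjusted p = 0.922). The near-identical Hsp70 copies share reads and are uncertain. The number of lower genes was 7 without PP replicate 2, 6 without PP replicate 3, 8 without w1118 replicate 3, 9 by library size and 1 with PP replicate 1 as the only PP library. PP replicate 1 and all w1118 libraries carry the same number at the end of their file labels, while PP replicates 2 and 3 each carry another. What it stands for is not given in the sources used here, and its part in these values was not tested. Against entire lglRNAi;RasV12-glands, none of the 20 heat shock genes was called, or 7 were lower without PP replicate 1.

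Of 24 oxidative stress genes, 7 were higher and 2 lower, against 15.7% and 11.3% of all genes. By library size 10 were higher and 1 was lower, against 2513 and 631 of all 9012 genes. The glutathione transferase gene GstD2 had 178, 310.1 and 162 CPM in the PP, against 3.5, 7.61 and 7.18 CPM in w1118-glands (log2 fold change 5.14 ± 0.33 SE, edgeR adjusted p = 2.29e-07). GstE6 had 24.8, 20.8 and 22.1 CPM in the PP, against 0.767, 1.73 and 0.871 CPM in w1118-glands (log2 fold change 4.28 ± 0.26 SE, edgeR adjusted p = 1.47e-07). Gclc, the catalytic subunit of glutathione synthesis, had 186, 290.1 and 279 CPM in the PP, against 59.7, 80 and 68.1 CPM in w1118-glands (log2 fold change 1.86 ± 0.17 SE, edgeR adjusted p = 3.47e-06). Prx4, a peroxiredoxin, was lower (log2 fold change -1.64 ± 0.15 SE, edgeR adjusted p = 3.25e-06). In sugar metabolism, 2 of 19 genes were higher and 7 lower, or 4 lower by library size. The trehalase gene Treh had 700.4, 1148 and 996 CPM in the PP, against 159.9, 138 and 128 CPM in w1118-glands (log2 fold change 2.74 ± 0.16 SE, edgeR adjusted p = 1.40e-07). Gpo1, the mitochondrial glycerophosphate oxidase, had 259.5, 305 and 289.8 CPM in the PP, against 44.8, 58.5 and 49.4 CPM in w1118-glands (log2 fold change 2.48 ± 0.11 SE, edgeR adjusted p = 2.79e-08). Lower glycolytic enzymes included Pglym78 (log2 fold change -1.58 ± 0.13 SE, edgeR adjusted p = 1.26e-06), Pgi (log2 fold change -1.49 ± 0.09 SE, edgeR adjusted p = 1.55e-07) and Pfk (log2 fold change -1.26 ± 0.12 SE, edgeR adjusted p = 4.24e-06). Against entire lglRNAi;RasV12-glands, 3 of the 24 oxidative stress genes were higher and 1 was lower. Of the 19 genes of sugar metabolism, 1 was higher and 4 were lower there, against 8.21% and 6.24% of all genes.

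The imaginal ring and the base of the duct lie at the proximal end. Of 31 genes of the Wingless, Hedgehog, Dpp and Notch pathways tested, 4 were higher and 1 was lower. These are smaller shares than the 15.7% higher and 11.3% lower over all genes. Wnt6 had 1.95, 4.6 and 2.74 CPM in the PP, against 0.192, 0.17 and 0.0435 CPM in w1118-glands (log2 fold change 4.48 ± 0.62 SE, edgeR adjusted p = 6.83e-05). The BMP ligand dpp had 8.95, 13.8 and 8.83 CPM in the PP, against 2.3, 2.11 and 1.31 CPM in w1118-glands (log2 fold change 2.47 ± 0.24 SE, edgeR adjusted p = 4.78e-06), and its receptor gene tkv was higher (log2 fold change 1.13 ± 0.13 SE, edgeR adjusted p = 1.77e-05). The homeobox gene invected (inv) had 3.47, 4.24 and 3.21 CPM in the PP, against 0.911, 0.34 and 0.609 CPM in w1118-glands (log2 fold change 2.58 ± 0.34 SE, edgeR adjusted p = 5.62e-05). The Wingless feedback gene nkd was lower, with 4.28, 3.31 and 6.34 CPM in the PP, against 25, 17.8 and 27.9 CPM in w1118-glands (log2 fold change -2.35 ± 0.29 SE, edgeR adjusted p = 3.28e-05). Of 5 duct and ring markers, toe was higher (log2 fold change 1.24 ± 0.10 SE, edgeR adjusted p = 1.02e-06), while eyg, trh, Ser and btl were not called. Against entire lglRNAi;RasV12-glands, however, Ser (log2 fold change 1.53 ± 0.23 SE, edgeR adjusted p = 4.83e-04) and trh (log2 fold change 1.21 ± 0.21 SE, edgeR adjusted p = 0.00123) were higher in the PP. Of the 31 signalling genes, 11 were higher and 2 (brk and fz3) lower there, against 8.21% and 6.24% of all genes. The number of higher genes was 6 without PP replicate 3, 6 without replicate 2 of the entire glands and 7 without their replicate 3, while fz3 was not called without PP replicate 2 (-0.91) or replicate 2 of the entire glands (-0.94). Wnt6 (log2 fold change 2.52 ± 0.50 SE, edgeR adjusted p = 0.00255) and inv (log2 fold change 1.95 ± 0.32 SE, edgeR adjusted p = 8.13e-04) had the largest increases. Of 9 imaginal disc markers tested, 2 were higher and 2 lower than in w1118-glands, against 15.7% and 11.3% of all genes. The summed list of 17 had 195 to 262 CPM in the PP and 73.3 to 100.2 CPM in w1118-glands. The disc genes eya and dac, named after their values were seen, were not called. For eya, levels were 0, 0.0132 and 2.77 CPM in the PP, against 0.0479, 0.034 and 0.131 CPM in w1118-glands. For dac, they were 0.299, 0.411 and 3.55 CPM in the PP, against 0.863, 0.102 and 0.479 CPM in w1118-glands. Both were highest in PP replicate 3.

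**Figure D5:**
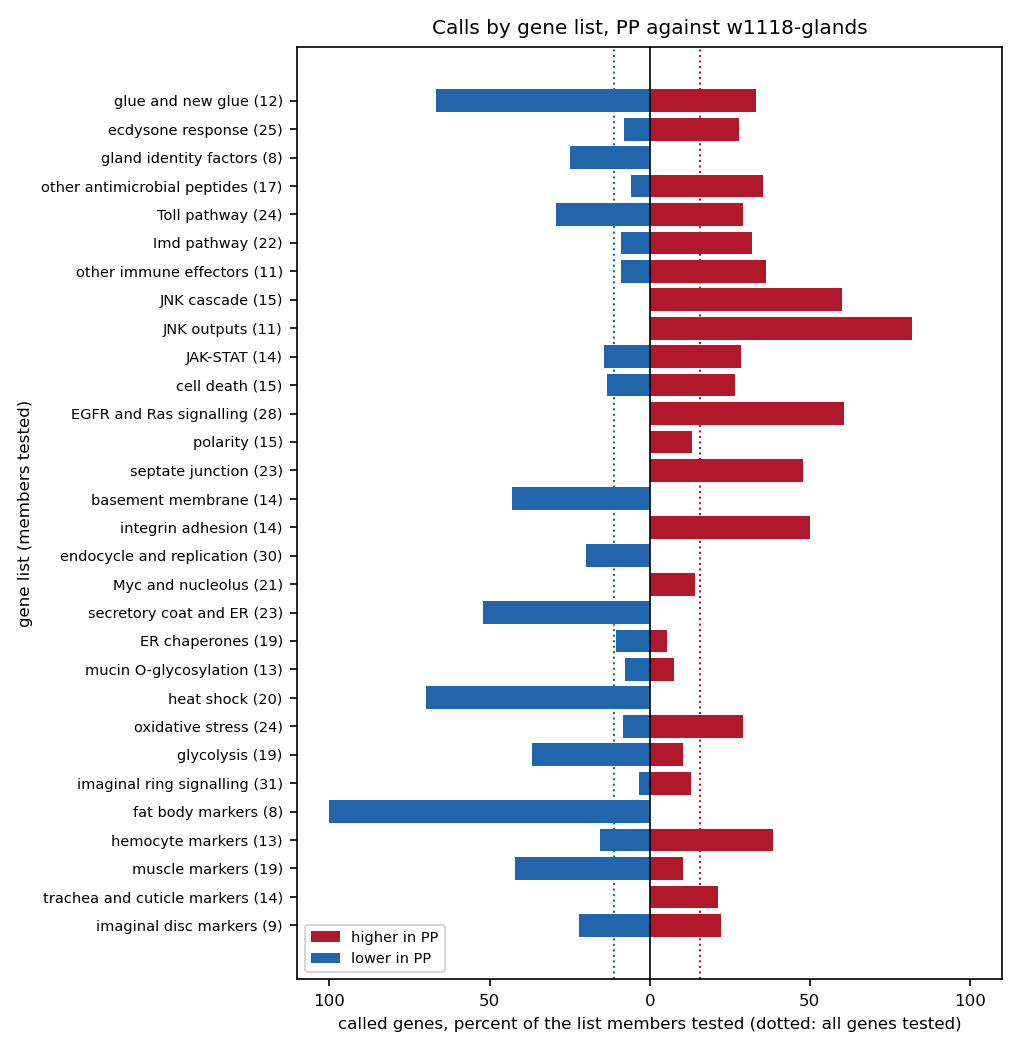
Share of the tested members of each gene list that were called as higher (right, red) or lower (left, blue) in the PP than in w1118-glands, for lists with at least 8 tested members, whose number stands in brackets. Dotted lines mark the shares over all genes tested (15.7% higher, 11.3% lower). JNK output genes (9 of 11) and EGFR genes (17 of 28, with the overexpressed Ras85D among them) reach far to the right. Fat body markers (8 of 8), heat shock genes (14 of 20) and secretory coat genes (12 of 23) reach to the left, and glue and new glue genes to both sides.

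Over all genes with a mean of at least 1 CPM in the higher group and no overlap between the groups, the largest increases were those of AttD, Drs, CG16978, CG2528, Def, Cyp12d1-d, Obp50e, CG43316, CG13135 and tej. CG13135 had 65.1, 108 and 99.8 CPM in the PP, against 0.24, 0.034 and 0.522 CPM in w1118-glands (log2 fold change 8.50 ± 0.71 SE, edgeR adjusted p = 1.58e-06, or 7.86 without w1118 replicate 2 and 9.53 without w1118 replicate 3). Most of the others were at or below the floor in w1118-glands, so that their folds are given from summed counts or as lower bounds. The tudor-domain gene tej, known from germline piRNA granules, had 3.86, 5.65 and 7.38 CPM in the PP, against 0, 0.034 and 0 CPM in w1118-glands (415-fold higher with an interval of 74.3 to 16419 by summed counts). CG16978, with 2.22, 3.87 and 2.63 CPM in the PP, was at 0 in all w1118 libraries (at least 23.6-fold higher). The same held for CG2528 (at least 19.7-fold higher), Obp50e (at least 10.8-fold higher), CG43316 (at least 10.5-fold higher) and Cyp12d1-d (at least 14-fold higher), which has a near-identical neighbour and is uncertain. The largest decreases were those of Eig71Eg, CG14273, Dscam4, CG12934, Lim3, CG7333, CG14247, CG15741, brv2 and CG8087. The adhesion gene Dscam4 had 0.329, 0.331 and 0.475 CPM in the PP, against 57.4, 32.1 and 29.9 CPM in w1118-glands (log2 fold change -6.73 ± 0.32 SE, edgeR adjusted p = 3.38e-08). It was also lower than in entire lglRNAi;RasV12-glands (log2 fold change -5.25 ± 0.31 SE, edgeR adjusted p = 1.31e-06). CG8087 had 1.8, 2.03 and 1.65 CPM in the PP, against 105, 61.3 and 52.5 CPM in w1118-glands (log2 fold change -5.31 ± 0.30 SE, edgeR adjusted p = 9.72e-08). CG15741 had 1.83, 1.1 and 4.08 CPM in the PP, against 24.9, 68 and 214 CPM in w1118-glands (log2 fold change -5.51 ± 0.77 SE, edgeR adjusted p = 8.09e-05), with a wide spread among the w1118 libraries, or -4.36 without w1118 replicate 3 and -6.19 without PP replicate 3. CG14273, CG7333, CG14247 and the homeobox gene Lim3 were at or below the floor in all PP libraries. By summed counts CG14273 was 442-fold lower with an interval of 78.6 to 17551, CG7333 was 58.7-fold lower with an interval of 28 to 148, CG14247 was 53.7-fold lower with an interval of 22.5 to 168, and Lim3 was 78-fold lower with an interval of 20.9 to 655.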

How the data were processed

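Poly(A)-selected RNA of the 12 libraries was sequenced by the authors as paired ends. They quantified transcripts with kallisto (version 0.44.0 per the submitters' processing notes) against a Drosophila melanogaster release 6 transcriptome. The deposited tables hold estimated counts and TPM (transcripts scaled to length and to the library total, which the authors' pipeline computed) for 30503 transcripts of each library. No read was realigned.

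Here the estimated counts were summed to 13825 genes through the Ensembl annotation (release 115, dm6), by which 30279 transcripts matched and 224 did not. The unmatched transcripts held 0.354% to 0.356% of the counts of a PP library and 0.197% to 0.215% of a w1118 library and were left out. Sums were rounded to whole numbers. Genes were kept by filterByExpr with a minimum count of 10, which left 9012. All 12 libraries entered 1 fit of edgeR 4.0.16 (R 4.3.3, TMM normalization, quasi-likelihood test), since their groups share 1 estimate of the spread, and p-values were Benjamini-Hochberg adjusted over all tested genes. A gene was called where the log2 fold change reached 1 in size and the adjusted p did not exceed 0.05. The floor is 3 counts per library. Genes with no more than that in every library of a group are given by the ratio of summed counts with an exact (Clopper-Pearson) 95% interval, or by a lower bound where all libraries were at 0. Floors, intervals and bounds cover counting error only. Reads of near-identical copies may be split by the estimation of counts, and strand was not considered, so overlapping genes are uncertain.

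Groups follow the sample titles. Each library is a pool of larvae, and p-values measure the spread between these pools. Correlations of log2 CPM between replicates were 0.982 to 0.986 for the PP and 0.975 to 0.981 for w1118. Named are Ras85D and l(2)gl, in each direction the 10 genes with the largest fold change among called genes without overlap and with at least 1 CPM in the higher group, and from each list up to 5 called members by fold change in each direction and up to 3 by level. Small counts and lists of 8 or fewer tested members were named in full where useful, and a few further genes were named after their values were seen. Members and lists were chosen with earlier results of these data known. The alternatives were other scalings (RLE, library size), no filter on low counts, DESeq2 1.42.0, limma 3.58.1 on log2(TPM + 0.1) and on log2(TPM + 1), a fit of the compared groups alone, a replicate block, each library left out in turn, PP replicate 1 as the only PP library, and no limit on the fold change. List counts under these settings, and single genes and lists against entire glands without each library, were added after the data were seen. The test was checked on simulated counts with 200 changed genes, as many higher as lower, and otherwise the same composition in every library. That check could not show errors that come from scaling or from a difference in composition between the groups. Python 3.11.15, pandas 2.3.3 and matplotlib 3.10.9 were used for tables and plots.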

Additional observations from a re-analysis of the deposited data

How the results depend on the processing

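Counts of called genes depended on the scaling and on the limit on the fold change. With library size in place of TMM, the PP had 2513 higher and 631 lower genes against w1118-glands, and with limma on log2(TPM + 0.1) 2595 were higher and 513 lower. With limma on log2(TPM + 1) 1819 were higher and 321 lower. The median log2 fold change of all tested genes was 0.56 by library size, 0.60 and 0.45 in the limma fits, 0.04 by RLE and 0.10 by TMM. With the adjusted p alone and no limit on the fold change, 3017 were higher and 2267 lower. The other settings (RLE, no filter, DESeq2, the compared groups alone, replicate block, PP replicate 1 alone) gave 1203 to 1538 higher and 754 to 1134 lower genes, and leaving out single libraries 1335 to 1429 higher and 907 to 1008 lower genes. Against entire lglRNAi;RasV12-glands, limma on log2(TPM + 1) gave 297 higher and 365 lower genes, and the adjusted p alone 1804 higher and 1604 lower. Leaving out single libraries gave 642 to 773 higher and 435 to 522 lower genes there. Of 225 called genes among those named by the rule or in the text, 135 kept their call under every alternative that tested them. The other 90 lost it under at least 1, and 0 changed sign. DESeq2 and the fit of the compared groups alone did not test all 225. The causes were not tested.

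The replicate numbers of the titles did not pair the libraries, as the correlations of the deviations of same-numbered PP and w1118 libraries were -0.156, -0.0787 and -0.0532. A fit with the replicate block gave 1404 higher and 999 lower genes against w1118, and 724 higher and 536 lower against entire lglRNAi;RasV12-glands. Depth limits the genes near the floor of 0.0397 to 0.144 CPM.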

Other observations

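Beyond the lists, some of the largest differences in level concerned genes chosen here after their values were seen. Arc1, which encodes a retrotransposon-derived capsid protein, averaged 17380.3 ± 4605 CPM in the PP and 861 ± 178 CPM in w1118-glands (SD, n = 3 each, as below). CG13947 averaged 15947 ± 4904 CPM in the PP and 265 ± 123 CPM in w1118-glands. It lies with CG13946 and CG12506 within 773547 to 779655 of arm 2L (dm6), and all of them were higher, with log2 fold changes of 5.91 for CG13947, 7.39 for CG13946 and 7.01 for CG12506, or 6.35 for CG12506 without PP replicate 2. The actin gene Act5C averaged 11998 ± 2320.3 CPM in the PP and 3953 ± 265 CPM in w1118-glands. Idgf3, a chitinase-like growth factor of the hemolymph, averaged 3017 ± 1343 CPM in the PP and 65.7 ± 4.34 CPM in w1118-glands. The cathepsin gene CtsL1 averaged 2957 ± 908 CPM in the PP and 97 ± 14.2 CPM in w1118-glands. All of these were called as higher by edgeR. A neighbouring pair on the same arm, CG31698 and CG15404 (3173205 to 3174504), was lower in the PP, with log2 fold changes of -4.34 and -4.49.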
